A study of Mus musculus with 16 samples.

Results

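The small-RNA silencing machinery was followed here through 10 genes: the nuclear processing pair Drosha and Dgcr8, the export receptor Xpo5, the cytoplasmic processing pair Dicer1 and Tarbp2, the Argonaute genes Ago1, Ago2, Ago3 and Ago4, and the Argonaute-binding scaffold Tnrc6a. They form a set named by function, chosen with earlier results of these data known and matched by gene symbol in a table of 55385 genes, and all 10 had enough reads to be among the 17222 genes tested. Total RNA was sequenced from primary hippocampal cultures of newborn C57Bl/6N mice, in which neuronal and astrocyte markers are both present, infected with recombinant adeno-associated viruses. The 16 libraries form 4 groups of 4: Control-shRNA at baseline, Control-shRNA after 4 h of bicuculline, Dnmt3a1-shRNA at baseline and Dnmt3a1-shRNA after 4 h of bicuculline. Bicuculline blocks GABA-A receptors and so drives bursts of synaptic activity. Dnmt3a1 is the long isoform of the DNA methyltransferase Dnmt3a, and 1 shRNA sequence against it was used in these libraries, so its effect cannot be told apart from anything else that sequence does. All 4 groups carry a virus with an shRNA made from a U6 promoter and GFP made from a chicken beta-actin promoter. A library without an shRNA was not analysed here, so the levels below are those of cells that already express a small hairpin RNA.

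Most animal miRNAs are cut in the nucleus and again in the cytoplasm on their way from a long transcript to a mature strand. Drosha, held on the RNA by its partner Dgcr8, releases a hairpin in the nucleus, Exportin 5 (Xpo5) carries the hairpin out, and Dicer with its partner Tarbp2 cuts off the loop. One strand is then loaded into an Argonaute protein, which binds Tnrc6 (GW182) proteins that recruit the enzymes for deadenylation, decapping and decay of the target mRNA. Hairpins made from a U6 promoter skip Drosha but use Exportin 5, Dicer and Argonaute. In neurons, miRNA pathway proteins also occur in dendrites, and several miRNAs are known to be induced by synaptic activity.

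Each library held between 28912697 and 29586355 counted read pairs, with scale factors between libraries of 0.871 to 1.12 and 2.73% to 6.60% of counts from mitochondrial genes. Dnmt3a, all isoforms counted together, fell by 2.81 on the log2 scale with the knockdown at baseline and by 2.85 with bicuculline. The activity genes Fos, Arc and Npas4 rose by between 5.64 and 7.32 on the log2 scale with bicuculline in the 2 arms. With the knockdown 1 of these activity genes was higher at baseline and 0 with bicuculline, where their log2 fold changes reached 0.61 and 0.37. The paper reports them as not altered by the knockdown. Neuronal markers were high in every library. In all of them 4 of 5 microglia markers (Aif1, Cx3cr1, P2ry12 and Tmem119) stayed under 1 CPM (counts of a gene scaled by library size and scale factor). Of 5 neuron markers 2 were higher and 1 lower with bicuculline in each arm, with log2 fold changes of -0.77 to 0.36 and -1.12 to 0.37. Of 5 excitatory neuron markers 1 was higher and 1 lower in each arm, with -1.29 to 1.54 and -1.14 to 1.53. The summed level of 5 GABAergic neuron markers was 1338 to 1698 CPM at baseline and 1943 to 2433 CPM after bicuculline in the Control-shRNA cultures, and 1061 to 1372 CPM and 1665 to 2174 CPM in the Dnmt3a1-shRNA cultures, with 4 of the 5 genes higher in each arm. None of 5 astrocyte markers passed, but their log2 fold changes with the knockdown at baseline lay between 0.38 and 0.64, 3 with an unadjusted p under 0.05. The tested microglia marker, Csf1r, was lower with the knockdown at baseline (-0.66) and with bicuculline (-0.75), and 2 of 4 tested fibroblast and vessel markers were higher with bicuculline in Control-shRNA cultures. Whether any of these markers had a part in the differences below was not tested. In such bulk samples fewer cells of a type and less RNA per cell cannot be told apart.

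On the length-corrected scale of TPM, Drosha was the most abundant of the 10 genes in all 4 groups and Ago4 the least. In the Control-shRNA baseline libraries the mean level fell from Drosha (57.2 TPM) through Ago1 (41.7 TPM), Tarbp2 (29.98 TPM), Ago2 (29.4 TPM), Dgcr8 (27.0 TPM), Tnrc6a (26.8 TPM), Xpo5 (25.7 TPM) and Dicer1 (19.3 TPM) to Ago3 (3.83 TPM) and Ago4 (1.60 TPM). From Tarbp2 to Xpo5 the ranges of neighbouring genes overlapped, so their order is not set, while Drosha, Ago1, Dicer1, Ago3 and Ago4 each stood clear of the next gene below or above. With bicuculline the order of the Argonautes changed. Ago2, the Argonaute best known for slicing its targets, stood at 34.1 TPM against 28.8 TPM for Ago1 in the Control-shRNA cultures, and at 37.3 TPM against 25.9 TPM in the Dnmt3a1-shRNA cultures. In the latter group the range of Ago2 overlapped that of Drosha (39.4 TPM).

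With 4 h of bicuculline, most of this machinery was lower at the RNA level and a pair of Argonautes was higher. In the Control-shRNA cultures 8 of the 10 genes passed the test, 2 higher (Ago2 and Ago3) and 6 lower (Ago1, Ago4, Dgcr8, Dicer1, Tnrc6a and Xpo5). Across all genes tested 41.4% passed in this comparison, 19.5% higher and 21.9% lower. In the Dnmt3a1-shRNA cultures all 10 passed, the same 2 higher and 8 lower, where 46.0% of the genes tested passed, 20.8% higher and 25.2% lower. These 2 comparisons share no libraries, and the 8 genes that passed in the first had the same direction in the second. They are not independent, since both come from 1 fit over the 16 libraries. Same-numbered baseline libraries of the 2 arms also had correlated deviations from their group means (r 0.204 to 0.355). Passing means an adjusted p under 0.05 in edgeR's quasi-likelihood F-test, with Benjamini-Hochberg adjustment over all genes tested. The median log2 fold change of the 10 genes was -0.31 and -0.39, beside 0.01 and -0.01 for all genes tested. In CPM the 4 bicuculline libraries did not overlap the 4 baseline libraries for 9 of the 10 genes in the Control-shRNA cultures. In the Dnmt3a1-shRNA cultures this held for 8. The shares over all genes were 39.7% and 40.4%. With an added minimum log2 fold change of 0.5 in either direction, 5 of the 10 passed in the Control-shRNA cultures (21.9% of all genes) and 6 in the Dnmt3a1-shRNA cultures (25.8%).

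**Figure D1:**
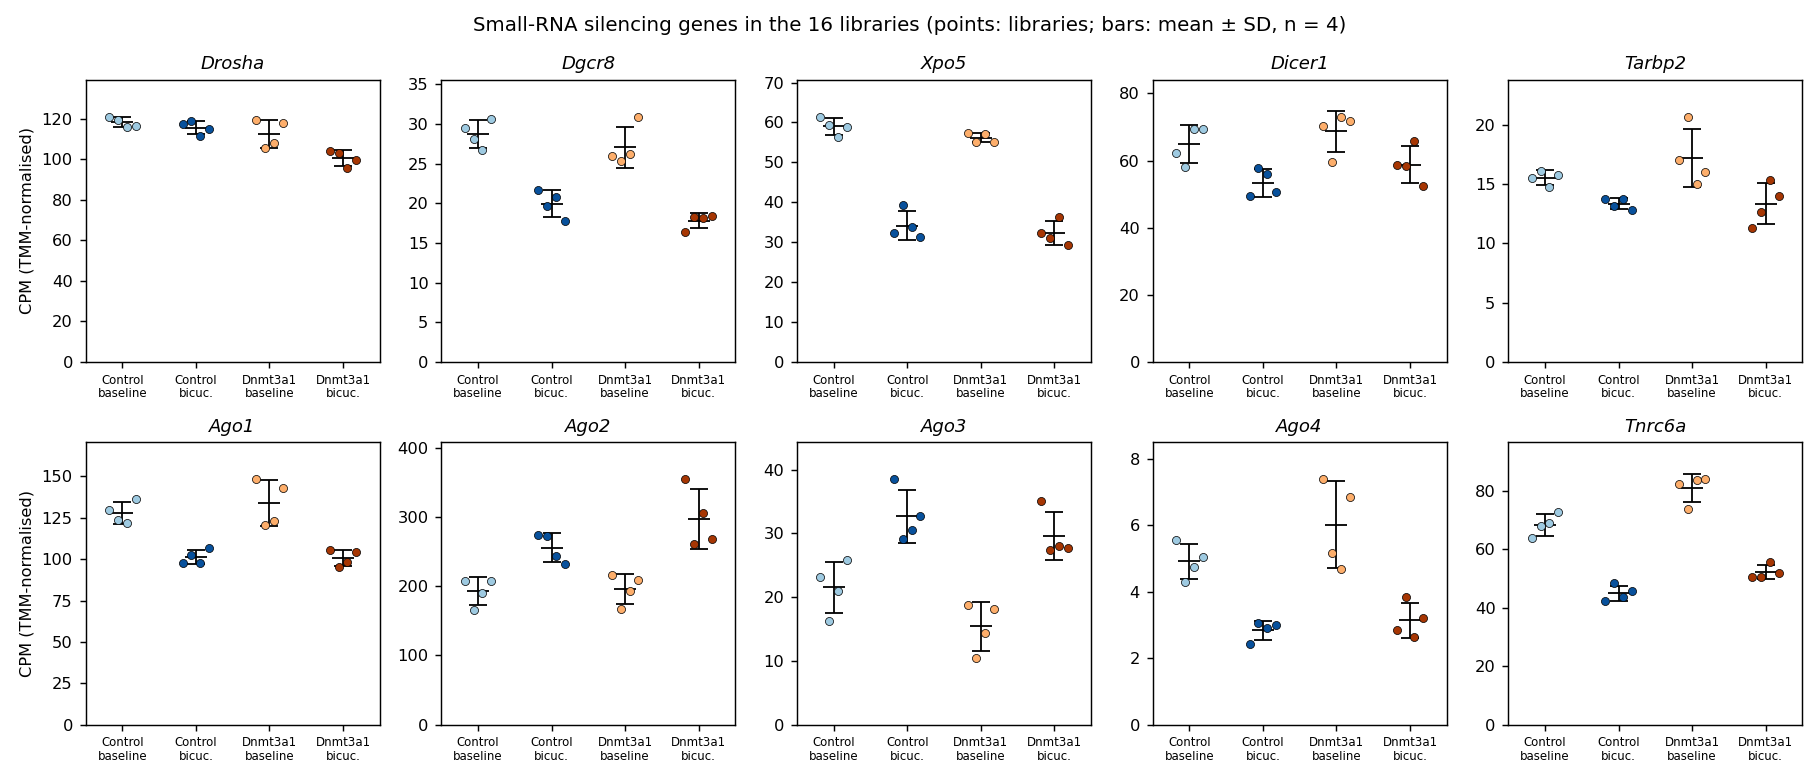
Normalised level (CPM, linear axis from 0) of each of the 10 genes in all 16 libraries, 1 panel a gene; points are libraries, bars are the mean ± SD of the 4 libraries of a group. Xpo5 sat between 55.2 and 61.5 CPM in the baseline libraries and between 29.3 and 39.4 CPM in the bicuculline libraries, while Drosha stayed between 95.5 and 121 CPM throughout.

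The Argonautes split into 2 pairs. Ago2 measured 207, 165, 190.4 and 208 CPM in the 4 Control-shRNA baseline libraries and 274, 272, 244 and 231 CPM after bicuculline. In the Dnmt3a1-shRNA cultures it measured 217, 167, 193 and 208 CPM before and 354, 260.4, 306 and 268 CPM after. In CPM every bicuculline library was above every baseline library in both arms. In TPM the Control-shRNA ranges overlapped (25.5 to 31.3 at baseline and 30.9 to 36.3 with bicuculline). Ago2 was 1.33-fold higher (log2 fold change 0.41, SE 0.10, adjusted p = 0.0043) in Control-shRNA and 1.51-fold higher (0.60, SE 0.10, adjusted p = 0.000135) in Dnmt3a1-shRNA cultures by edgeR's quasi-likelihood F-test, Benjamini-Hochberg adjusted. On the TPM scale the rise in Control-shRNA cultures was smaller and did not pass (0.21 on the log2(TPM + 1) scale, adjusted p = 0.106, limma). Of the distinct 31-base stretches of Ago2, 7.27% occur in other genes, most of them in the pseudogene Gm6088, which reached at most 0.0329 CPM, and 219 of its exon bases overlap Chrac1 on the opposite strand, which was lower with bicuculline (log2 fold change -0.79 and -0.94).

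Ago3, whose protein lacks detectable slicing of most targets, gave 23.1, 16.2, 21.0 and 25.7 CPM in Control-shRNA baseline and 38.5, 29.04, 30.5 and 32.8 CPM in Control-shRNA bicuculline libraries. The Dnmt3a1-shRNA libraries gave 18.8, 10.46, 14.4 and 18.1 CPM at baseline and 35.1, 27.4, 28.01 and 27.8 CPM with bicuculline. In CPM the groups did not overlap within either arm. In TPM they overlapped in Control-shRNA cultures (2.39 to 5.61 at baseline and 5.26 to 5.79 with bicuculline). They did not in Dnmt3a1-shRNA cultures (2.33 to 2.87 and 3.38 to 6.18). By edgeR's quasi-likelihood F-test, Benjamini-Hochberg adjusted Ago3 was 1.52-fold higher (0.60, SE 0.16, adjusted p = 0.0059) in Control-shRNA and 1.91-fold higher (0.94, SE 0.17, adjusted p = 0.000143) in Dnmt3a1-shRNA cultures.

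Ago1, an abundant Argonaute without slicing activity on most targets, moved the other way. Its levels were 129.9, 123, 122 and 137 CPM at Control-shRNA baseline and 97.9, 103, 97.4 and 106 CPM with bicuculline. Dnmt3a1-shRNA cultures had 148, 121, 123 and 143 CPM at baseline and 106, 95.3, 98.3 and 104 CPM with bicuculline. All 8 bicuculline libraries were lower than all 8 baseline libraries. The level with bicuculline was 0.790 times that at baseline in Control-shRNA (log2 fold change -0.34, SE 0.07, adjusted p = 0.000661) and 0.754 times in Dnmt3a1-shRNA cultures (-0.41, SE 0.07, adjusted p = 9.6e-05) in edgeR's quasi-likelihood F-test, Benjamini-Hochberg adjusted.

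Ago4, the scarcest Argonaute here, fell furthest of the family in proportion. It measured 5.56, 4.29, 4.75 and 5.03 CPM in the Control-shRNA cultures at baseline and 2.42, 3.05, 2.92 and 2.98 CPM after bicuculline. With Dnmt3a1-shRNA it measured 7.38, 5.17, 4.67 and 6.83 CPM at baseline and 2.85, 3.85, 2.64 and 3.21 CPM after bicuculline. No bicuculline library reached the lowest baseline library. The ratio of bicuculline to baseline was 0.581 in Control-shRNA (log2 fold change -0.78, SE 0.16, adjusted p = 0.000662) and 0.523 in Dnmt3a1-shRNA cultures (-0.94, SE 0.16, adjusted p = 9.25e-05) by edgeR's quasi-likelihood F-test, Benjamini-Hochberg adjusted.

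Because the 4 Argonautes accept small RNAs from one pool, their composition within a library was taken as each gene's percentage of the summed Argonaute TPM. Ago1 made up 52.9%, 58.5%, 53.6% and 53.3% of the sum at Control-shRNA baseline and 39.6%, 41.0%, 40.7% and 45.4% with bicuculline. Ago2 made up 39.6%, 36.1%, 39.9% and 37.9% at baseline and 51.2%, 50.5%, 49.9% and 45.5% with bicuculline. In all 4 bicuculline libraries of this arm Ago2 therefore had the larger share, and in all 4 baseline libraries Ago1 did, though in bicuculline replicate 4 the shares were almost equal. Taken in estimated counts, which are not corrected for length, Ago2 had the larger mean share already at baseline (55.4% against 37.0% for Ago1) and after bicuculline (65.1% against 25.9%). The Dnmt3a1-shRNA cultures went from 55.3% ± 1.66 to 37.7% ± 2.56 for Ago1 and from 38.5% ± 1.80 to 54.1% ± 2.91 for Ago2 (SD, n = 4). Ago3 went from 4.94% ± 1.45 to 7.88% ± 0.428 and from 3.72% ± 0.0969 to 6.93% ± 1.79 of the sum in the 2 arms, and Ago4 from 2.10% ± 0.141 to 1.17% ± 0.134 and from 2.51% ± 0.287 to 1.24% ± 0.303 (SD, n = 4). None of these shares overlapped between baseline and bicuculline within an arm. Each gave p = 0.0286 in a two-sided exact permutation test, the smallest that 4 against 4 libraries allow, and 0.080 after adjustment over the 28 tests of shares and ratios, of which 0 passed. The summed Argonaute level was 76.5 ± 5.05 TPM at baseline and 69.1 ± 2.76 TPM with bicuculline in Control-shRNA cultures, and 71.8 ± 6.81 TPM and 68.9 ± 4.15 TPM in Dnmt3a1-shRNA cultures (SD, n = 4), and the ranges overlapped within each arm. In CPM, which is not corrected for length, the sum was 347 ± 29.8 at baseline and 392 ± 20.8 with bicuculline in Control-shRNA and 352 ± 39.7 and 431 ± 48.96 in Dnmt3a1-shRNA cultures (SD, n = 4), the other direction, again with overlap.

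**Figure D2:**
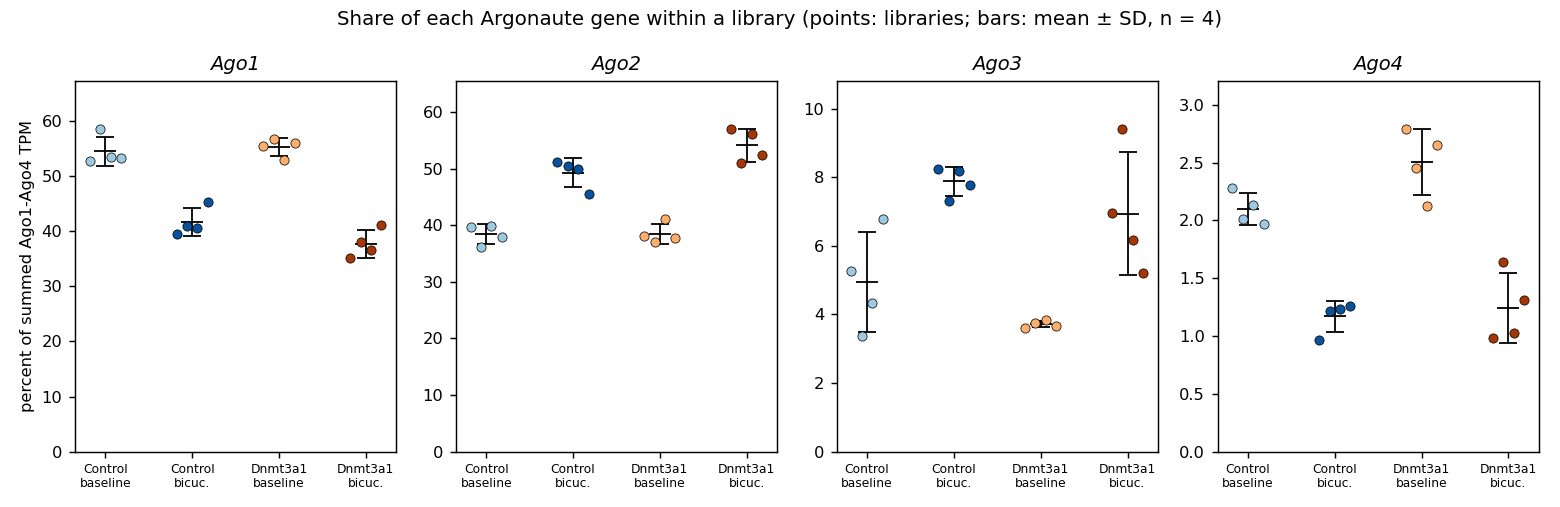
Percentage of the summed TPM of Ago1, Ago2, Ago3 and Ago4 that each gene contributed in every library, by group; points are libraries and bars are the mean ± SD of 4. Ago1 lay between 52.9% and 58.5% in baseline libraries and between 35.1% and 45.4% in bicuculline libraries, and Ago2 between 36.1% and 41.1% and between 45.5% and 56.9%.

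The split did not follow position in the genome. Ago3 (chr4:126331704-126429556), Ago1 (chr4:126435012-126468583) and Ago4 (chr4:126489541-126533472, all on the minus strand of GRCm38) lie head to tail with 5455 and 20957 bases between them and no other protein-coding gene in the gaps. Ago3, at one end of this cluster, was higher with bicuculline and its neighbours Ago1 and Ago4 were lower. Ago2, which was higher, lies alone on another chromosome (chr15:73095844-73184935, minus strand).

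In the nucleus, Dgcr8 was lower with bicuculline and Drosha, its partner, had a smaller difference in CPM. In TPM the log2 ratio of Drosha to Dgcr8 overlapped between baseline and bicuculline in both arms. It differed by 0.49 and 0.12 (adjusted p = 0.253 and 0.419, two-sided exact permutation test). In estimated counts it was 0.50 and 0.44 higher with bicuculline, without overlap (adjusted p = 0.0615 for each, same test). Dgcr8 binds the hairpin and positions Drosha on it. It measured 29.5, 28.1, 26.7 and 30.7 CPM in Control-shRNA baseline and 21.7, 19.6, 20.8 and 17.8 CPM in Control-shRNA bicuculline libraries. In Dnmt3a1-shRNA libraries the levels were 25.9, 25.3, 26.2 and 30.9 CPM before and 16.4, 18.3, 18.1 and 18.4 CPM after. No library overlapped between baseline and bicuculline. The log2 fold change was -0.52 (SE 0.08, adjusted p = 3.79e-05) in Control-shRNA and -0.61 (SE 0.08, adjusted p = 6.9e-06) in Dnmt3a1-shRNA cultures, edgeR's quasi-likelihood F-test, Benjamini-Hochberg adjusted. On the log2(TPM + 1) scale the change in Dnmt3a1-shRNA cultures was -0.44 and did not pass (adjusted p = 0.0608, limma).

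Dgcr8 (chr16:18253948-18289246, minus strand of GRCm38) shares 825 of its 7696 exon bases with Trmt2a on the opposite strand, and 16.9% of its distinct 31-base stretches occur in other genes. The sources used here do not give whether the libraries kept strand, so reads from the shared bases could be counted for either gene. Trmt2a itself was higher with bicuculline (log2 fold change 0.32, adjusted p = 0.00332, and 0.29, adjusted p = 0.00707, edgeR's quasi-likelihood F-test, Benjamini-Hochberg adjusted), the opposite direction to Dgcr8.

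The Dgcr8 transcript also carries miRNA hairpins in its own exons, which the Drosha and Dgcr8 complex is known to cut, so that the complex can lower its own message. The 2 hairpins give 4 mature miRNAs in RefSeq's annotation of GRCm38.p6, all inside exons. They are printed here 5′ to 3′ with the seed, bases 2 to 8, in capitals, because they show which part of this message is itself a substrate of the machinery. The 5p strand of miR-1306 lies at chr16:18284288-18284310 on the minus strand. No 2 of the 4 share a seed, and mature miRNAs were not measured in these libraries.
miR-1306-5p: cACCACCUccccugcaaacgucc
miR-1306-3p: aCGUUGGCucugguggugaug
miR-3618-5p: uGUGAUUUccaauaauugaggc
miR-3618-3p: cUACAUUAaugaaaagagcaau

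Drosha, the nuclear RNase III enzyme, measured 121, 119, 116 and 116 CPM at Control-shRNA baseline and 117, 119, 111 and 115 CPM after bicuculline. The groups overlapped, and the log2 fold change was -0.03 (SE 0.05, 95% interval -0.13 to 0.07, adjusted p = 0.671, edgeR's quasi-likelihood F-test, Benjamini-Hochberg adjusted). With library sizes as the only scaling it was -0.19 and passed (adjusted p = 0.00212, same test), and on the log2(TPM + 1) scale -0.23 (adjusted p = 0.00632, limma), with 54.6 to 59.7 TPM at baseline and 47.0 to 49.97 TPM after bicuculline. At Control-shRNA baseline Drosha had the lowest coefficient of variation in CPM of the 10 genes, 2.07%. In Dnmt3a1-shRNA baseline libraries it was 6.16%. In TPM Drosha had 4.29% at Control-shRNA baseline, and the lowest was that of Xpo5, 0.686%. With Dnmt3a1-shRNA the 4 baseline libraries had 119, 105, 108 and 118 CPM and the 4 bicuculline libraries 104, 103, 95.5 and 99.6 CPM. Here the bicuculline libraries lay just below the baseline libraries, and Drosha passed with a log2 fold change of -0.16 (SE 0.05, adjusted p = 0.016, edgeR's quasi-likelihood F-test, Benjamini-Hochberg adjusted). That call was lost without the filter on low counts (adjusted p = 0.0749), with only the 2 groups in the fit (0.0717), and without Dnmt3a1-shRNA baseline replicate 1 (0.0586) or 4 (0.0537).

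Xpo5, the export receptor for hairpins, had the largest fall of the 10 genes in Control-shRNA cultures, close to that of Ago4, and the next largest after Ago4 in Dnmt3a1-shRNA cultures. It measured 61.5, 59.3, 56.3 and 58.9 CPM at Control-shRNA baseline and 32.2, 39.4, 33.7 and 31.3 CPM after bicuculline. In the Dnmt3a1-shRNA arm it measured 57.3, 55.2, 57.0 and 55.2 CPM at baseline and 32.4, 30.99, 36.2 and 29.3 CPM after bicuculline. The gap between the lowest baseline and the highest bicuculline library was wider than the spread within any group. The level fell to 0.579 times baseline in Control-shRNA (log2 fold change -0.79, SE 0.07, adjusted p = 1.8e-07) and to 0.574 times in Dnmt3a1-shRNA cultures (-0.80, SE 0.07, adjusted p = 1.14e-07), edgeR's quasi-likelihood F-test, Benjamini-Hochberg adjusted. No 31-base stretch of Xpo5 (chr17:46202782-46243598, plus strand) occurs in another annotated gene.

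Dicer1, the RNase III enzyme that removes the hairpin loop, measured 62.4, 58.0, 69.5 and 69.5 CPM at Control-shRNA baseline and 49.3, 57.8, 56.1 and 50.5 CPM with bicuculline. In Dnmt3a1-shRNA cultures it measured 70.4, 59.6, 73.1 and 71.6 CPM and 58.8, 58.4, 65.7 and 52.4 CPM. The Control-shRNA groups were separated by a narrow gap, from 57.8 to 58.0 CPM, and the Dnmt3a1-shRNA groups overlapped. The log2 fold change was -0.28 (SE 0.09, adjusted p = 0.0139) and -0.22 (SE 0.09, adjusted p = 0.0398) by edgeR's quasi-likelihood F-test, Benjamini-Hochberg adjusted. The call in Dnmt3a1-shRNA cultures was lost with DESeq2 (adjusted p = 0.0579), with DESeq2's size factors, with only the 2 groups in the fit, on the TPM scale, and without Dnmt3a1-shRNA baseline replicate 1, 3 or 4 or bicuculline replicate 1, 2 or 4 (adjusted p 0.0609 to 0.1198). In Control-shRNA cultures it was lost on the TPM scale (-0.25, adjusted p = 0.187, limma).

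Tarbp2, the double-stranded RNA-binding partner of Dicer, measured 15.5, 16.1, 14.7 and 15.8 CPM at Control-shRNA baseline and 13.7, 13.1, 13.8 and 12.8 CPM with bicuculline. The groups did not overlap, but the log2 fold change of -0.22 (SE 0.10, 95% interval -0.41 to -0.02) did not pass over all genes (adjusted p = 0.0904, edgeR's quasi-likelihood F-test, Benjamini-Hochberg adjusted). It passed with library sizes only (-0.38, adjusted p = 0.0118), when only the 2 groups were fitted (adjusted p = 0.0212) and without Dnmt3a1-shRNA baseline replicate 2 (0.0453). The Dnmt3a1-shRNA libraries gave 17.0, 20.7, 15.0 and 16.1 CPM at baseline and 11.3, 12.7, 15.4 and 13.99 CPM with bicuculline, where Tarbp2 passed with a log2 fold change of -0.37 (SE 0.10, adjusted p = 0.00576, edgeR's quasi-likelihood F-test, Benjamini-Hochberg adjusted) although the groups overlapped. Of its distinct 31-base stretches, 16.6% occur in the pseudogene Gm18584, which reached at most 0.0987 CPM in any library. The other double-stranded RNA-binding partner of Dicer, Prkra, passed in none of the comparisons.

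Tnrc6a, the scaffold that joins Argonaute to the deadenylases, was lower with bicuculline by about the same amount in both arms. It measured 63.7, 68.0, 68.8 and 72.6 CPM at Control-shRNA baseline and 42.3, 48.3, 43.6 and 45.6 CPM after bicuculline. With Dnmt3a1-shRNA it measured 82.1, 73.9, 83.7 and 83.9 CPM at baseline and 50.6, 50.6, 55.5 and 52.0 CPM after bicuculline. The baseline and bicuculline libraries were far apart in both arms. The log2 fold change was -0.60 (SE 0.06, adjusted p = 4.84e-07) and -0.63 (SE 0.06, adjusted p = 2.01e-07), edgeR's quasi-likelihood F-test, Benjamini-Hochberg adjusted.

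Its paralogs Tnrc6b and Tnrc6c encode scaffolds of the same family. Tnrc6c passed lower in both arms (log2 fold change -0.36, adjusted p = 0.000221, and -0.31, adjusted p = 0.000736, edgeR's quasi-likelihood F-test, Benjamini-Hochberg adjusted). Tnrc6b measured 97.8, 75.4, 82.4 and 94.5 CPM at Control-shRNA baseline and 60.2, 59.8, 55.4 and 54.0 CPM with bicuculline, and it passed (-0.61, SE 0.12, adjusted p = 0.000639, same test). In the Dnmt3a1-shRNA arm it measured 106, 67.7, 85.1 and 90.9 CPM at baseline and 90.6, 64.8, 78.5 and 69.2 CPM with bicuculline. These groups overlapped and the log2 fold change of -0.21 did not pass (adjusted p = 0.186, same test), but the difference between the arms did not pass either (interaction 0.40, adjusted p = 0.962, same test). The summed TPM of the 3 paralogs was 76.5 ± 6.22 at baseline and 51.2 ± 5.31 with bicuculline in Control-shRNA cultures, and 70.8 ± 5.41 and 55.7 ± 5.78 in Dnmt3a1-shRNA cultures (SD, n = 4).

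**Figure D3:**
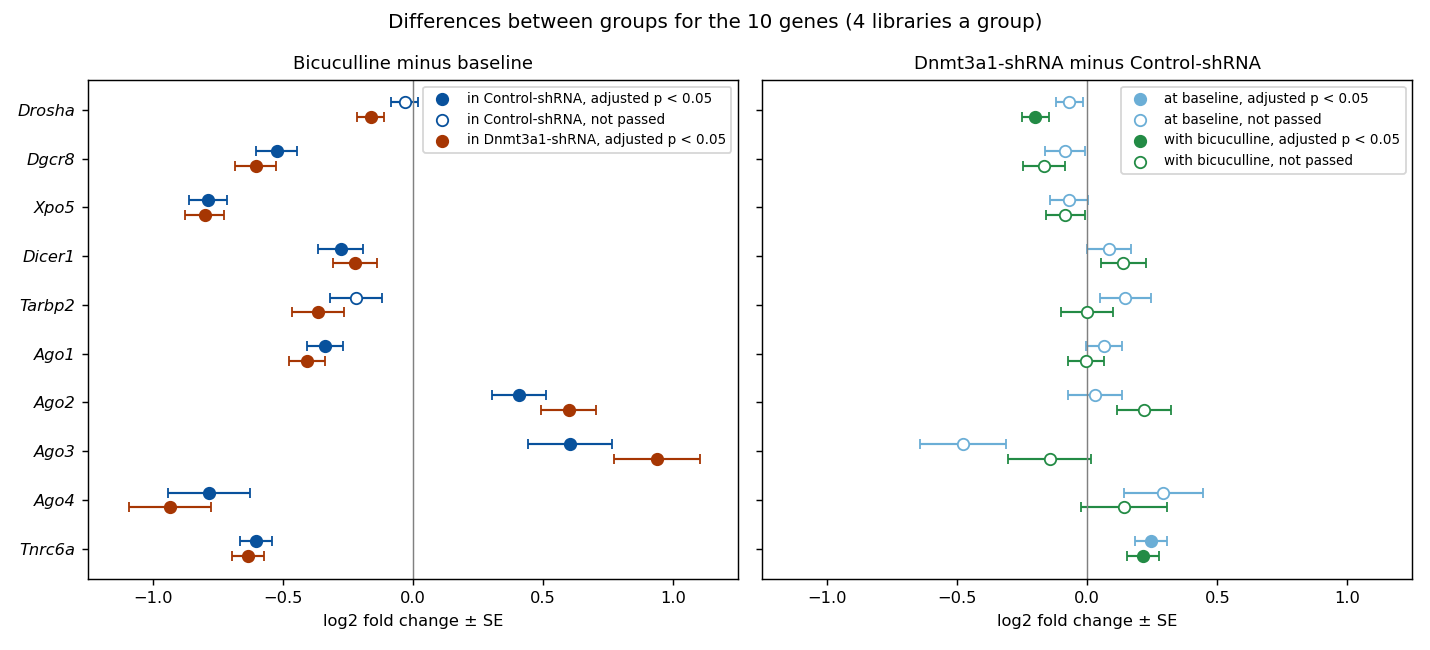
Log2 fold change ± SE (edgeR) of the 10 genes: bicuculline minus baseline in each arm on the left, Dnmt3a1-shRNA minus Control-shRNA at baseline and with bicuculline on the right; filled points have an adjusted p under 0.05. On the left Ago2 and Ago3 lie above 0 and the other 8 below it, from -0.94 to 0.94. On the right the values lie between -0.48 and 0.29, and the filled points are Tnrc6a in both comparisons and Drosha with bicuculline.

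Knockdown of Dnmt3a1 was compared at baseline and with bicuculline. At baseline 1 of the 10 passed, Tnrc6a, which was 1.18-fold higher with Dnmt3a1-shRNA (log2 fold change 0.24, SE 0.06, adjusted p = 0.0104, edgeR's quasi-likelihood F-test, Benjamini-Hochberg adjusted). Across all genes tested 16.3% passed in this comparison, 8.12% higher and 8.19% lower, and 5.83% passed with a log2 fold change over 0.5, as none of the 10 did. Tnrc6a was also the 1 gene of the 10 whose groups did not overlap (19.9% of all genes), with 63.7 to 72.6 CPM in Control-shRNA and 73.9 to 83.9 CPM in Dnmt3a1-shRNA libraries. The difference was 0.16 with library sizes as the only scaling (adjusted p = 0.158, edgeR's quasi-likelihood test) and 0.11 on the log2(TPM + 1) scale (adjusted p = 0.624, limma). With the replicate number as a block, 4743 genes passed in place of 2809, and 2 of the 10 in place of 1.

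The gene added by the block was Ago3. Between Dnmt3a1-shRNA and Control-shRNA at baseline it had a log2 fold change of -0.48 (SE 0.17, 95% interval -0.80 to -0.16) that did not pass without the block (adjusted p = 0.0571) and -0.49 that passed with it (adjusted p = 0.00128), both by edgeR's quasi-likelihood F-test, Benjamini-Hochberg adjusted. The difference was also past the threshold with library sizes only (-0.56, adjusted p = 0.0127), with no filter on low counts (adjusted p = 0.0221), with DESeq2 (adjusted p = 0.0316), without Control-shRNA baseline replicate 2 (-0.59, adjusted p = 0.0219) or bicuculline replicate 1 (adjusted p = 0.0475), and without Dnmt3a1-shRNA baseline replicate 1 (-0.59, adjusted p = 0.0356) or bicuculline replicate 1 (adjusted p = 0.0487). The ranges overlapped, from 16.2 to 25.7 CPM in Control-shRNA and from 10.46 to 18.8 CPM in Dnmt3a1-shRNA libraries. The other 8 genes had log2 fold changes between -0.09 (Dgcr8) and 0.29 (Ago4), none past the threshold. Of these, Dgcr8 passed on the log2(TPM + 1) scale (-0.66, adjusted p = 0.0281, limma) and Drosha with library sizes only (-0.15, adjusted p = 0.0299, edgeR).

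With bicuculline, 2 of the 10 differed between the arms, beside 17.7% of all genes (7.69% higher, 9.99% lower). Neither difference was over 0.5 on the log2 scale, as 5.89% of all genes were. Tnrc6a was 1.16-fold higher with Dnmt3a1-shRNA (log2 fold change 0.22, SE 0.06, adjusted p = 0.0228) and Drosha was 0.870 times the Control-shRNA level (-0.20, SE 0.05, adjusted p = 0.0127), edgeR's quasi-likelihood F-test, Benjamini-Hochberg adjusted. Both had groups that did not overlap (20.9% of all genes): 42.3 to 48.3 against 50.6 to 55.5 CPM for Tnrc6a, and 111 to 119 against 95.5 to 104 CPM for Drosha. The Tnrc6a call was lost with library sizes only (0.15, adjusted p = 0.203), with no filter (adjusted p = 0.0805), without Control-shRNA bicuculline replicate 1 (0.18, adjusted p = 0.0652) or 3 (0.20, adjusted p = 0.0682) and without Dnmt3a1-shRNA bicuculline replicate 3 (0.18, adjusted p = 0.0637), and on the log2(TPM + 1) scale the value was -0.00203. The Drosha call was lost with no filter on low counts (adjusted p = 0.0762). Ago2 had a log2 fold change of 0.22 in this comparison and did not pass (adjusted p = 0.164, same test). The baseline and bicuculline comparisons of the arms share no libraries with each other, but each shares its libraries with the bicuculline comparisons above.

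The response to bicuculline was not shown to differ between the arms for any of the 10 genes. The interaction of shRNA and bicuculline ranged from -0.15 (Ago4) to 0.33 (Ago3, 95% interval -0.12 to 0.78) on the log2 scale, and none passed by edgeR's quasi-likelihood F-test, Benjamini-Hochberg adjusted. Over all genes 0 passed (0.00%), 852 had an unadjusted p under 0.05 (4.95%), and DESeq2 called 18 genes. None of the 10 had an unadjusted p under 0.05. These 4 libraries a group therefore leave room for differences of at least the size of that interval.

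The genes that work with these 10 were taken from 5 lists: biogenesis partners, loading and RISC partners, GW182 paralogs with the deadenylases, decapping and decay, and miRNA tailing and turnover. Of 54 genes, 53 were tested. In Control-shRNA cultures 9 were higher and 21 lower with bicuculline, and their median log2 fold change was -0.06. In Dnmt3a1-shRNA cultures 10 rose and 27 fell, and the median was -0.18. Over all genes tested 19.5% were higher and 21.9% lower in the first arm and 20.8% and 25.2% in the second, and these also stand beside the counts of each list that follow; no test compared the lists. The 7 biogenesis partners had 4 higher and 0 lower in Control-shRNA and 3 higher and 0 lower in Dnmt3a1-shRNA cultures. Among 15 GW182 paralogs and deadenylation genes 1 was higher and 8 lower, then 2 higher and 9 lower. Among 11 decapping and decay genes 1 was higher and 7 lower, then 1 higher and 9 lower. The 13 loading genes had 3 higher and 3 lower, then 3 higher and 5 lower, and the 7 tailing genes tested had 0 higher and 3 lower, then 1 higher and 4 lower.

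**Figure D4:**
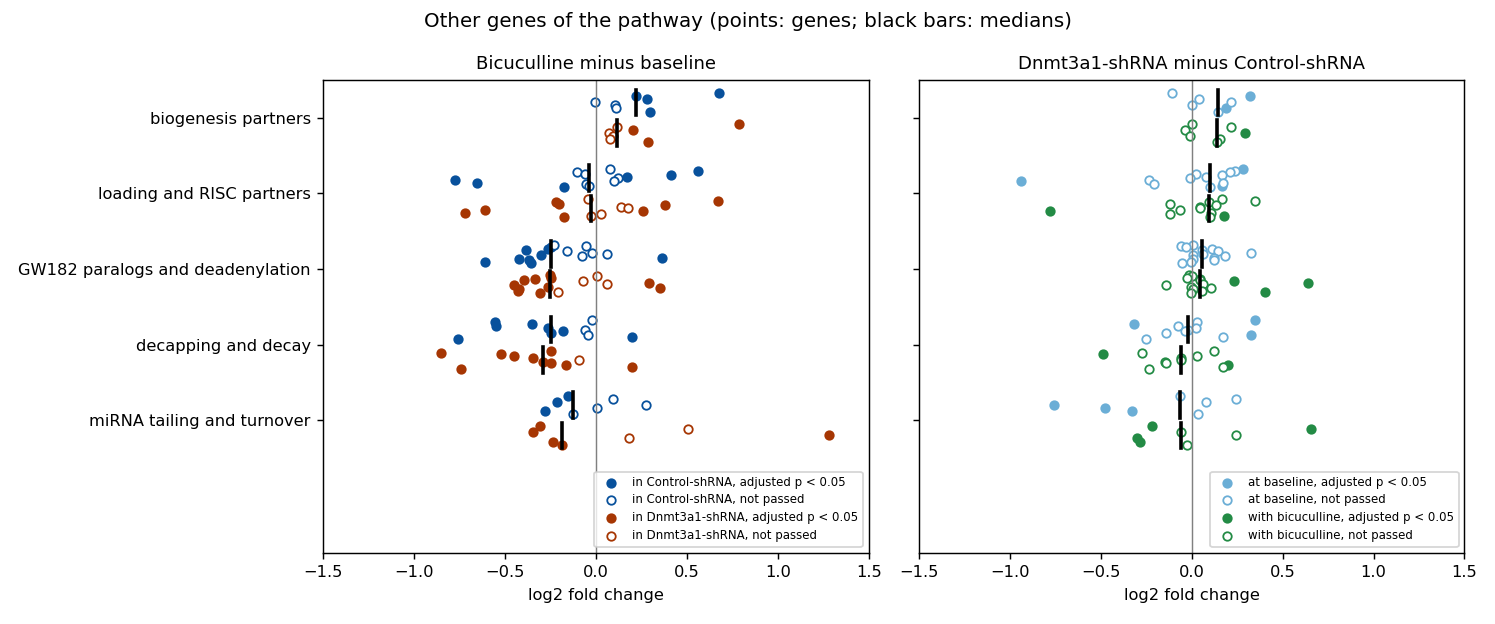
Log2 fold change (edgeR) of the 53 partner genes tested, by list. The left shows bicuculline minus baseline in each arm. The right shows Dnmt3a1-shRNA minus Control-shRNA at baseline and with bicuculline. Each point is a gene, filled with an adjusted p under 0.05, and each bar the median of its list. On the left the biogenesis partners have medians of 0.22 and 0.11, above 0 in both arms. The GW182 and deadenylation list (-0.25 and -0.26) and the decapping list (-0.25 and -0.29) have medians below 0 in both.

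Among the biogenesis partners Adar, which converts adenosine to inosine in double-stranded RNA and can edit miRNA precursors, had the largest rise in Control-shRNA cultures (log2 fold change 0.68, adjusted p = 1.12e-08) and rose by 0.78 in Dnmt3a1-shRNA cultures (adjusted p = 1.21e-09, edgeR's quasi-likelihood F-test, Benjamini-Hochberg adjusted). Srsf3, a splicing factor that also recruits Drosha to hairpins, rose by 0.30 in Control-shRNA cultures (adjusted p = 0.0256, same test). Ddx17, a helicase of the Drosha complex, passed higher in both arms (0.28, adjusted p = 0.000688, and 0.20, adjusted p = 0.00675, same test), though neither call held with library sizes only and on the log2(TPM + 1) scale its change in the second was -0.0248. Fmr1, the Fragile X protein found with Argonaute, rose by 0.56 (adjusted p = 0.00204) and 0.67 (adjusted p = 0.000345, same test). Hsp90aa1, a chaperone used in loading Argonaute, rose by 0.41 (adjusted p = 0.0110) and 0.38 (adjusted p = 0.0163), and Pabpc1, the poly(A)-binding protein, by 0.36 (adjusted p = 0.000301) and 0.35 (adjusted p = 0.000358, same test). Trim71, a ubiquitin ligase and known let-7 target, rose by 1.28 in Dnmt3a1-shRNA cultures (adjusted p = 1.55e-06, same test). In Control-shRNA cultures no gene of its list, miRNA tailing and turnover, passed higher, and the largest log2 fold change was 0.28. The interaction did not pass for any gene, so a difference between the arms was not shown.

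Among the named genes that were lower, Xrn1, the exonuclease that degrades decapped mRNA, fell by 0.76 (adjusted p = 1.9e-06) and 0.74 (adjusted p = 2.04e-06) on the log2 scale in the 2 arms, edgeR's quasi-likelihood F-test, Benjamini-Hochberg adjusted. The decapping genes Dcp1b and Dcp2 fell in both arms as well, Dcp1b by 0.56 (adjusted p = 0.000552) and 0.85 (adjusted p = 6.6e-06) and Dcp2 by 0.35 (adjusted p = 0.00669) and 0.52 (adjusted p = 0.000274, same test). Mov10, a helicase bound to Argonaute, fell by 0.78 (adjusted p = 0.000173) and 0.61 (adjusted p = 0.00145, same test).

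With the knockdown at baseline 6 of the 53 partners were higher and 5 lower, and with bicuculline 7 were higher and 5 lower, beside 8.12% and 8.19% of all genes at baseline and 7.69% and 9.99% with bicuculline. Ptges3, the Hsp90 cochaperone p23, had the largest difference in both, lower by 0.94 (adjusted p = 3.12e-07) and by 0.78 (adjusted p = 2.48e-06, edgeR's quasi-likelihood F-test, Benjamini-Hochberg adjusted). The terminal uridylyltransferases Tut4 and Tut7, which tail let-7 precursors, were lower in both: Tut4 had log2 fold changes of -0.48 (adjusted p = 0.000281) and -0.30 (adjusted p = 0.00959) and Tut7 of -0.33 (adjusted p = 0.0230) and -0.29 (adjusted p = 0.0468, same test). Dis3l2, an exonuclease for uridylated RNA, was lower with bicuculline (-0.22, adjusted p = 0.0199), as was Dcp2 in both comparisons (-0.32, adjusted p = 0.0315, and -0.49, adjusted p = 0.00249, same test). Trim71 was lower at baseline (-0.76, adjusted p = 0.00201, same test).

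Higher with the knockdown at baseline were Dcp1a (0.35, adjusted p = 0.00127), the P-body gene Lsm14b (0.32, adjusted p = 0.000299), the editing enzyme Adarb1 (0.32, adjusted p = 0.00688), the Hsp90 cochaperone Fkbp4 (0.28, adjusted p = 0.0371) and Ran, the GTPase that Exportin 5 needs (0.19, adjusted p = 0.0289), on the log2 scale by edgeR's quasi-likelihood F-test, Benjamini-Hochberg adjusted. With bicuculline the deadenylase genes Cnot6l (0.64, adjusted p = 0.000777) and Cnot6 (0.23, adjusted p = 0.0352), the let-7 binder Lin28b (0.65, adjusted p = 0.0385), Tnrc6b (0.40, adjusted p = 0.0315) and the Drosha-complex helicase Ddx5 (0.29, adjusted p = 0.0238, same test) were higher. Leaving out a single library lost the calls of Ran, Fkbp4, Dcp2 and Tut7 at baseline, of Lin28b, Cnot6, Tnrc6b, Ddx5, Dis3l2 and Tut7 with bicuculline, and, in the comparisons above, of Srsf3 in Control-shRNA and Hsp90aa1 in Dnmt3a1-shRNA cultures, with adjusted p between 0.0501 and 0.1349.

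The parallel germline pathway of piRNAs was close to silent. Of 10 genes 5 were tested, and 8 (Asz1, Henmt1, Mael, Mov10l1, Piwil1, Piwil2, Piwil4 and Pld6) stayed under 1 CPM in every library.

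Part of the substrates of the machinery was read through long transcripts that host miRNAs, taken by a symbol of the form Mir...hg or Mirg. Hosts with other symbols, protein-coding genes among them, were not counted. The levels are those of annotated transcripts, and the hairpins themselves were not measured. Of 11 host transcripts 9 were tested, and 7 were higher and 0 lower with bicuculline in Control-shRNA cultures, with 6 of the 9 not overlapping between groups (39.7% of all genes). In Dnmt3a1-shRNA cultures 8 were higher and 0 lower. The shares of all genes that were higher, 19.5% and 20.8%, were those given above. Dgcr8 and Xpo5 were lower in these libraries, and whether that is related to the host levels was not tested. The host of miR-22, Mir22hg, measured 13.1, 14.5, 17.9 and 16.1 CPM at Control-shRNA baseline and 40.2, 31.3, 38.7 and 33.1 CPM with bicuculline. In Dnmt3a1-shRNA cultures it measured 15.8, 19.6, 21.8 and 17.7 CPM and 44.8, 48.4, 46.6 and 48.9 CPM. Every bicuculline library was above every baseline library (log2 fold change 1.22, adjusted p = 9.84e-08, and 1.33, adjusted p = 2.17e-08, edgeR's quasi-likelihood F-test, Benjamini-Hochberg adjusted).

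A selection of the mature strands of the hosts that responded is printed below from RefSeq (GRCm38.p6), 5′ to 3′ with the seed in capitals. It shows target-recognition sequences that these transcripts could supply. The hosts hold further annotated strands that are not printed. The mature strands of miR-155, miR-22 and the miR-17 cluster lie inside exons of their hosts, whereas those of miR-9, let-7c and miR-129 do not lie within 1 exon. In the miR-17 cluster miR-17-5p and miR-20a-5p share 1 seed, and miR-19a-3p and miR-19b-3p share another. The RefSeq table used here had no entry in the 2 miR-124 hosts.
miR-155-5p (Mir155hg): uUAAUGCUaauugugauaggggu
miR-22-3p (Mir22hg): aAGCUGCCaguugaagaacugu
miR-17-5p (Mir17hg): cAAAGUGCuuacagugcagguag
miR-20a-5p (Mir17hg): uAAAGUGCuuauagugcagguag
miR-19a-3p (Mir17hg): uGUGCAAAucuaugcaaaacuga
miR-19b-3p (Mir17hg): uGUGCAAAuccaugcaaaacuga
miR-9-5p (Mir9-3hg): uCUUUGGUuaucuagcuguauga
let-7c-5p (Mir99ahg): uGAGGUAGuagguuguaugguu
miR-129-5p (Mir670hg): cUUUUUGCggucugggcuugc
miR-134-5p (Mirg): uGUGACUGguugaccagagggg

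Mir155hg was near 0 at baseline, with 0, 0.0617, 0 and 0 CPM in Control-shRNA and 0.0703, 0, 0 and 0 CPM in Dnmt3a1-shRNA libraries. With bicuculline it had 0.856, 0.391, 0.412 and 0.596 CPM and 0.475, 0.407, 0.178 and 0.480 CPM. It passed in both arms (adjusted p = 3.41e-05 and 0.00022, edgeR's quasi-likelihood F-test, Benjamini-Hochberg adjusted), and no fold is given against libraries at 0. Mir17hg, host of the miR-17 cluster, lay between 0.0324 and 0.340 CPM at Control-shRNA baseline and between 0.213 and 0.707 CPM with bicuculline, where its log2 fold change of 1.70 did not pass (adjusted p = 0.0501) and that of 1.77 with the replicate number as a block did (adjusted p = 0.0258, same test). It also passed without Control-shRNA baseline replicate 2 (2.88, adjusted p = 0.00619). In Dnmt3a1-shRNA cultures it rose by 2.71 (adjusted p = 0.000925, same test), with 0 to 0.262 CPM before and 0.606 to 1.59 CPM after.

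Mirg, a brain transcript with 14 annotated hairpins and 26 mature strands in RefSeq, among them miR-134, measured 13.7, 14.6, 13.7 and 13.8 CPM at Control-shRNA baseline and 24.2, 18.4, 18.7 and 19.7 CPM with bicuculline. It rose by 0.54 (adjusted p = 0.0017) in this arm and by 0.87 (adjusted p = 1.3e-05) in Dnmt3a1-shRNA cultures, edgeR's quasi-likelihood F-test, Benjamini-Hochberg adjusted, and the first did not pass on the log2(TPM + 1) scale (adjusted p = 0.0571, limma). Mir670hg, which spans the hairpin of miR-129, rose by 0.97 (adjusted p = 0.000627) and 1.59 (adjusted p = 5.21e-06, same test). Mir9-3hg rose by 0.62 (adjusted p = 6.78e-06) and 0.60 (adjusted p = 7.09e-06), Mir124-2hg by 0.82 (adjusted p = 0.00145) and 0.86 (adjusted p = 0.000692), and Mir99ahg, host of let-7c, by 0.72 (adjusted p = 0.00867) and 0.64 (adjusted p = 0.014, same test). The exception was Mir124a-1hg, host of another copy of the neuronal miR-124, with log2 fold changes of -0.16 and 0.10 (adjusted p = 0.480 and 0.664, same test).

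Between the arms at baseline 1 of the 9 hosts passed, lower, where 16.3% of all genes passed. Mir670hg measured 28.2, 18.2, 19.4 and 33.2 CPM in the Control-shRNA libraries and 10.96, 10.01, 12.2 and 10.6 CPM in those of Dnmt3a1-shRNA (log2 fold change -1.18, adjusted p = 0.0007, edgeR's quasi-likelihood F-test, Benjamini-Hochberg adjusted), without overlap and past the threshold under each alternative tried. With bicuculline 2 of the 9 passed (17.7% of all genes): Mir22hg (0.39, adjusted p = 0.0148) and Mirg (0.52, adjusted p = 0.0063, same test), both higher in Dnmt3a1-shRNA cultures. The Mir22hg call was lost without Control-shRNA bicuculline replicate 2 (adjusted p = 0.0504) or 4 (adjusted p = 0.0529), and neither passed on the TPM scale.

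**Figure D5:**
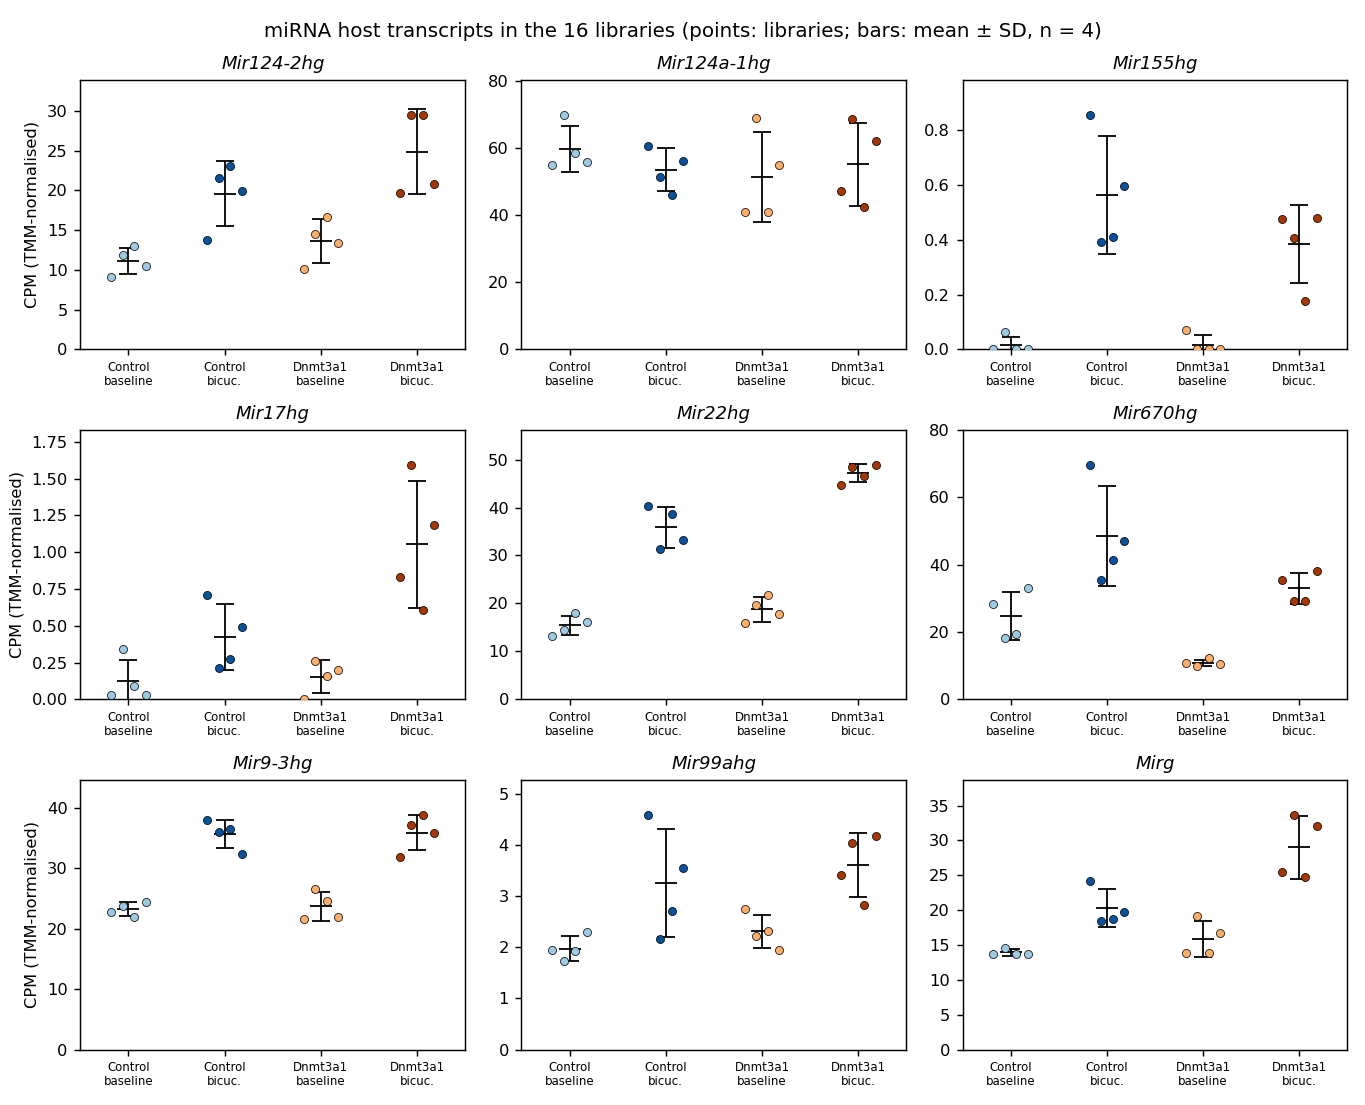
Normalised level (CPM, linear axis from 0) of the 9 tested miRNA host transcripts in all 16 libraries; points are libraries and bars the mean ± SD of 4. Mir22hg lies between 13.1 and 21.8 CPM in baseline and between 31.3 and 48.9 CPM in bicuculline libraries, and Mir124a-1hg overlaps between all groups.

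Promoter sequence was read for 9 of the 10 genes from RefSeq windows of 300 bases around the start site (GRCm38.p6), 10 windows in all since Ago1 has 2 and the table has none for Ago2. The letters searched on both strands were the activity-linked CRE, TGACGTCA, its shorter form TGACG, which is contained in it, and the AP-1 form TGANTCA. None of the 10 windows holds TGACGTCA, which 1.79% of all 32851 windows hold, or TGANTCA, held by 7.81%. TGACG occurs in the windows of 5 genes, Ago3, Ago4, Drosha, Tarbp2 and Xpo5, and in 20.8% of all windows. A match of these letters is a description and no binding was measured. The contexts of Ago3, which rose, and Xpo5, which fell, are printed with the letters found in capitals, on the strand where they read TGACG, to show that genes of opposite direction hold them. The first Ago3 match lies at chr4:126429562-126429566 on the minus strand.
Ago3, position -24 from the start site: gagagcggaagTGACGcgagcgggctt
Ago3, position -191: cccgctgtgccTGACGgcgacaatccc
Xpo5, position -112: gccgcttcgggTGACGgccgcgcctgg
Xpo5, position -170: cgagggacggtTGACGcgcctgcgcac

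Across the 16 libraries some of these genes varied together and others oppositely; correlations within a group were not computed. Log2 CPM of Ago2 and Ago3 had a Pearson r of 0.82, Ago1 and Ago4 of 0.92 and Dgcr8 and Xpo5 of 0.92, while Ago2 and Dgcr8 had -0.81 and Ago3 and Tarbp2 -0.83. Drosha and Ago3 had -0.08. Among 9238 genes of at least 10 CPM, those whose levels were most like Ago2 were Cltc (r = 0.968), Slc38a6 (0.959) and Kctd16 (0.959), and those most like Dicer1 were Acaca (0.930), Adam22 (0.923) and Zyg11b (0.913). These values describe the 16 libraries, which share treatment, preparation and scaling.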

How the data were processed

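RNA from 16 cultures was sequenced by the authors as paired-end reads, trimmed with Trim Galore 0.6.4 and assigned with kallisto (0.4.6 in the submitters' processing notes) to GRCm38.p6. The authors deposited, for each library, estimated counts and TPM per gene, TPM being scaled for transcript length. Per the study's methods each condition had 4 independent neuronal preparations. Library strandedness and the annotation release are not given in the sources used here. Of 55385 gene identifiers, 54487 matched GENCODE M21 with version and 55144 without, which gave names and coordinates.

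Estimated counts were rounded and tested in R 4.3.3 with edgeR 4.0.16 (TMM scaling, filterByExpr, quasi-likelihood fit of 4 groups over 16 libraries), with Benjamini-Hochberg adjustment over 17222 genes and a threshold of 0.05. CPM are TMM-scaled. Intervals are normal 95% intervals of the log2 fold change, with the SE taken back from the F statistic. They are somewhat narrower than the F-test itself would give. Shares of summed TPM were compared with two-sided exact permutation tests (scipy 1.17.1). The alternatives were other scalings, no filter, voom with limma 3.58.1, DESeq2 1.42.0, limma on log2(TPM + 1) and log2(TPM + 0.1), only the groups compared, a minimum log2 fold change of 0.5, the replicate number as a block, and each library left out.

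Same-numbered libraries deviated together in all 4 pairs (r over 0.1) for bicuculline in Control-shRNA cultures (0.142 to 0.221) and for the knockdown at baseline (0.204 to 0.355). There the numbers, given in the labels, were read as pairs, but the main test held no replicate term. The block on the replicate number was an alternative only. For bicuculline in Dnmt3a1-shRNA cultures r was 0.0631 to 0.337, and for the knockdown with bicuculline 0.0667 to 0.388. Replicates differed by more than counting noise (chi-square per degree of freedom 7.14 to 39.8), and p-values measure the spread between these cultures. No library was dropped.

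The 10 genes and all lists were chosen with earlier results of these data known. Named besides them were Tnrc6b, Tnrc6c, Prkra, Ddx5, Ddx17 and Ran, the label checks, up to 5 partner genes a direction and comparison with the largest passing changes and a mean of at least 1 CPM, tested host transcripts, and the 3 genes most like Ago2 and Dicer1. A partner gene that this rule names is not reported here. Trmt2a, Chrac1, Gm6088 and Gm18584 were named after their values were seen. On counts simulated for bicuculline in Control-shRNA cultures (16690 genes) the test recovered 79 of 100 genes changed by 0.5 on the log2 scale. It recovered 100 of 100 changed by 1, with 9 false calls. The changed genes had a mean of at least 5 CPM at Control-shRNA baseline, so scarcer genes such as Ago4 are not covered. Each gene had the spread usual for its level, and no replicate effect was simulated.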

Additional observations from a re-analysis of the deposited data

Results flagged for a closer look

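A single library stood apart from the other 3 of its group, by Dixon's 95% limit for 4 values, in 5 of 68 groups looked at, where chance alone gives about 1 in 20. Ago3 was highest in Dnmt3a1-shRNA bicuculline replicate 1, at 35.1 CPM beside 27.4 to 28.01 CPM in the others. Dgcr8 was highest in Dnmt3a1-shRNA baseline replicate 4, at 30.9 CPM beside 25.3 to 26.2 CPM, and lowest in Dnmt3a1-shRNA bicuculline replicate 1, at 16.4 CPM beside 18.1 to 18.4 CPM. The share of Ago1 among the Argonautes was highest in Control-shRNA baseline replicate 2, at 58.5% beside 52.9% to 53.6%. The share of Ago4 was lowest in Control-shRNA bicuculline replicate 1, at 0.969% beside 1.21% to 1.26%. Ago3 and Dgcr8 kept their direction and their call with bicuculline in Dnmt3a1-shRNA cultures when any 1 of these libraries was left out.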

How the results depend on the processing

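All members called with bicuculline kept their direction under every alternative. A minimum log2 fold change of 0.5 left 3765 and 4436 genes and 5 and 6 members for bicuculline, and 1004 and 1015 genes and 0 members for the knockdown. At baseline 2 members passed for the knockdown with library sizes only, without a filter, with DESeq2 and with the block, 1783 genes on the log2(TPM + 0.1) scale, and 1 to 2 members without single libraries. With bicuculline 1 member passed with library sizes only and on both TPM scales, 0 without a filter, and 1 to 2 without single libraries. The block, 4743 genes for the knockdown at baseline, changed no other call of a member in the comparisons read as paired. In the others it gave 5158 genes for the knockdown with bicuculline and 3 interaction genes. It also gave a call for Tnrc6b with bicuculline in Dnmt3a1-shRNA cultures (adjusted p = 0.0444, edgeR's quasi-likelihood F-test). Interaction genes numbered 3 without a filter, 18 with DESeq2 and 0 to 1 without single libraries.
Signs turned mostly for differences that had not passed, Tnrc6a and Ddx17 being the exceptions, and the cause was not tested. For the knockdown at baseline, library sizes only gave -0.018 for Ago1 and -0.052 for Ago2, and the TPM scales gave -0.074 and -0.075 for Ago1, -0.088 and -0.090 for Ago2, -0.081 and -0.086 for Dicer1 and -0.040 and -0.042 for Tarbp2. For the knockdown with bicuculline, DESeq2's size factors and DESeq2 gave 0.0111 and 0.0110 for Ago1 and 0.0117 and 0.0122 for Tarbp2, only the 2 groups gave 4.09e-05 for Tarbp2, and the TPM scales gave -0.00203 and -0.00214 for Tnrc6a. The TPM scales turned the interaction of Dgcr8 (0.25 and 0.26) and Xpo5 (0.025 and 0.020), and in Dnmt3a1-shRNA cultures the bicuculline change of Ddx17 (-0.0248 and -0.0250) and Tnrc6b (0.33 and 0.35). Library sizes only gave -0.053 for Mir124a-1hg there. Without single libraries the ranges crossing 0 were -0.029 to 0.27 for Mir124a-1hg, -0.039 to 0.099 for Ago2 at baseline, -0.028 to 0.032 for Ago1 and -0.077 to 0.066 for Tarbp2 between arms with bicuculline, and for the interaction -0.0080 to 0.11 for Dicer1, -0.071 to 0.0064 for Tnrc6a and -0.073 to 0.063 for Xpo5. Taken in estimated counts, the Tnrc6a share (0.503 points) and the log2 ratio of Drosha to Dgcr8 (-0.038), both between arms with bicuculline, and that of Dicer1 to Tarbp2 with bicuculline in Control-shRNA cultures (-0.059) had the other sign. Of genes passing, 47.0%, 45.2%, 49.8% and 43.5% were higher for bicuculline in Control-shRNA, bicuculline in Dnmt3a1-shRNA, the knockdown at baseline and the knockdown with bicuculline, and 26.5%, 28.3%, 26.9% and 25.2% with library sizes only, where the median of all genes was -0.15, -0.16, -0.07 and -0.08.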
